A study of Homo sapiens with 6 samples.

Results

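The Notch pathway was followed through RNA levels on arrays, which do not measure protein or receptor cleavage. Followed were the ligand genes JAG1, JAG2 and DLL1, the receptor genes NOTCH1, NOTCH2 and NOTCH3 and the receptor-modifying enzyme gene LFNG. The target genes were HES1, HEY1 and NRARP. These 10 genes were picked by name for their place in the pathway, out of 18417 genes with a probe set annotated with their symbol alone. Each of the 10 had exactly 1 such probe set, a group of short DNA probes that is read as a single value. Total RNA was hybridised to 3 Affymetrix HuGene arrays of MCF10A-SNAI1 cells and 3 of untransfected MCF10A cells, and the deposited values are log2 intensities. MCF10A cells are human mammary epithelial cells that were immortalized but do not form tumors. The MCF10A-SNAI1 line came from MCF10A cells that received the plasmid pBeta-SNAI1-Flag, in which a CMV enhancer and a chicken beta-actin promoter drive SNAI1-Flag, and that were then selected with puromycin in another laboratory. Both lines were grown in the same mammary epithelial medium with cholera toxin. No array holds cells with an empty plasmid, and no source used here says whether the line is 1 clone. The untransfected MCF10A cells were bought from ATCC and came as a gift from a colleague in Bonn. Whether the SNAI1 line was made from that same stock is not stated either. Effects of SNAI1 and of the transfection, the drug selection, the culture history or the starting stock of that line therefore cannot be told apart.

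Notch receptors sit in the cell membrane and are cut when a Jagged or Delta-like ligand on a neighbouring cell binds them. A metalloprotease and then gamma-secretase free the intracellular domain, which joins the DNA-binding protein RBPJ and a Mastermind-like coactivator in the nucleus and switches on HES and HEY genes, whose products are transcriptional repressors. In the mammary epithelium the pathway is known for guiding progenitor cells toward the luminal fate. SNAI1 is a zinc finger repressor that binds E-box sequences and drives epithelial-mesenchymal transition (EMT).

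SNAI1 was checked first. It lay at 10.50, 10.53 and 10.50 in the MCF10A-SNAI1 arrays and at 5.80, 5.73 and 5.77 in the MCF10A arrays, a log2 fold change of 4.75 (standard error 0.0563, adjusted p = 7.06e-08 from limma). Every log2 fold change given here is MCF10A-SNAI1 minus MCF10A, and the p-values measure the spread between these arrays, which the study describes as independently reproduced. The array medians lay between 6.04 and 6.09. Of 6 measured mammary epithelial markers 4 were called lower and KRT8 was higher at 0.95 (adjusted p = 6.22e-05), under 2-fold. Of 8 mesenchymal markers 6 were called higher and 1, SPARC, lower at -2.76 (adjusted p = 6.10e-07). Over all genes 2.54% were called lower and 3.10% higher. The mesenchymal filament gene VIM averaged 11.67 in MCF10A-SNAI1 and 11.62 in MCF10A arrays (adjusted p = 0.601). The mean log2 value of the epithelial markers was 8.79 to 8.90 in MCF10A-SNAI1 arrays and 11.22 to 11.24 in MCF10A arrays. For the mesenchymal markers it was 9.60 to 9.63 in MCF10A-SNAI1 and 8.02 to 8.15 in MCF10A arrays. For the endothelial markers it was 5.02 to 5.11 in MCF10A-SNAI1 and 4.95 to 5.04 in MCF10A arrays, and for the leukocyte markers 5.58 to 5.63 in MCF10A-SNAI1 and 5.28 to 5.35 in MCF10A arrays. Of the 3 leukocyte markers measured only CD68 was higher, at 0.99 (adjusted p = 8.86e-05), while PTPRC was at -0.01 and CD3E at -0.16. The table holds no detection calls, so none of these levels by itself shows whether a gene was expressed.

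A gene was called when its adjusted p from limma was below 0.01 and it changed more than 2-fold. By this rule 4 of the 10 genes were lower in MCF10A-SNAI1 cells, against 2.54% of all genes. None was called higher, against 3.10% of all genes, and the methods' t-test called none higher either. At an unadjusted p below 0.05, 5 of the 10 were lower, against 21.3% of all genes, and 1 was higher, against 21.0%. Without the fold limit, 4 were lower at an adjusted p below 0.01, against 11.2% of all genes, and 1 was higher, against 12.1%. The arrays of the lines did not overlap for 6 of the 10 genes, which was also so for 48.3% of all genes. The median log2 fold change was -0.26 over the 10 genes and -0.01 over all genes, and the median size of the change, sign apart, was 0.63 against 0.15. The study names Notch among the pathways with significantly regulated genes on these same arrays. The 10 genes were also chosen with results known, so the share called is not independent evidence.

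**Figure D1:**
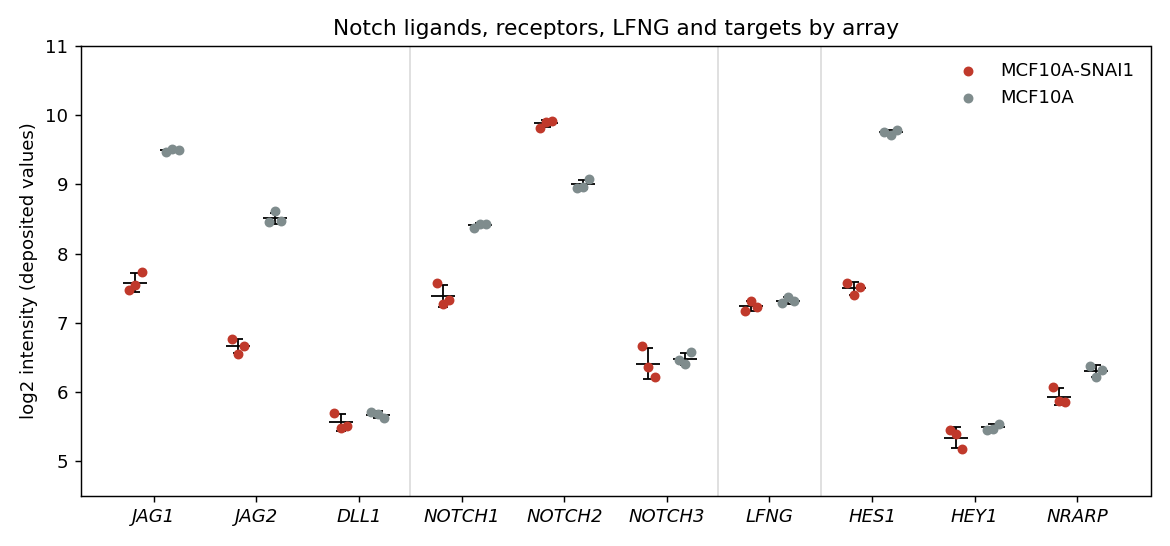
Log2 intensity of the 10 genes on each array, with MCF10A-SNAI1 in red left of MCF10A in grey and black bars at the mean with the SD (n = 3 arrays). JAG1, JAG2, NOTCH1 and HES1 are lower in all 3 MCF10A-SNAI1 arrays, NOTCH2 is higher, and the points of DLL1, NOTCH3, LFNG and HEY1 overlap between the lines.

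The promoters of the genes that changed most are shown because SNAI1 and RBPJ act through short DNA motifs near gene starts. Windows from 250 bases before to 50 after the start were taken from RefSeq (GRCh38.p14), which gave windows for 8 of the 10 genes. Both strands were searched for CAGGTG, the E2-box that Snail proteins bind, which reads CACCTG on the other strand, and for TGGGAA, the core of the RBPJ motif, which reads TTCCCA on the other strand. Neither motif overlaps the other in these windows. Matches are in capitals.
HES1 (chr3:194135898-194136197, + strand): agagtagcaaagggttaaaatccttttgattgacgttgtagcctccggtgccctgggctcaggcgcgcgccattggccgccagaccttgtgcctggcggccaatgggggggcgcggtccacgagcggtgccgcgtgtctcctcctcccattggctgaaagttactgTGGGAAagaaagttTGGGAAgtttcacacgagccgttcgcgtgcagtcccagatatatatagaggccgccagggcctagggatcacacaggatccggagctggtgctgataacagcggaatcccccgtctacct
JAG1 (chr20:10673950-10674249, - strand): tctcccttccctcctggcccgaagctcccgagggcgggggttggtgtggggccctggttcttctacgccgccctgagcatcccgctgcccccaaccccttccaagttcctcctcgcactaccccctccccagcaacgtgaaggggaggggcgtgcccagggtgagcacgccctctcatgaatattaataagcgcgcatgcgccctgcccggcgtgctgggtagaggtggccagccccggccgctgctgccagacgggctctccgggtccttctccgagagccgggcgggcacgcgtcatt
JAG2 (chr14:105168727-105169026, - strand): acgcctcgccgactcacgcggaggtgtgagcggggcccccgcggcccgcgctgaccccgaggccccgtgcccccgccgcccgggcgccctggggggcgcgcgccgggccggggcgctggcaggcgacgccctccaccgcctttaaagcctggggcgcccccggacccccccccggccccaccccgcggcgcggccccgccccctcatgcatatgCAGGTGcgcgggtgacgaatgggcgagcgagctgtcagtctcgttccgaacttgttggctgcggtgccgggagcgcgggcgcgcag
NOTCH1 (chr9:136545999-136546298, - strand): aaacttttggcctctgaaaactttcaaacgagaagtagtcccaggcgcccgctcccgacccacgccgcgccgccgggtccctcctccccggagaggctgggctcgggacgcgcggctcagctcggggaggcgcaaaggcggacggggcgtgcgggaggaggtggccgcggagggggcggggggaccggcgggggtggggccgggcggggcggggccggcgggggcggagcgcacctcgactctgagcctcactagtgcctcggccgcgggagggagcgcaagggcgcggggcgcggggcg
NOTCH2 (chr1:120069613-120069912, - strand): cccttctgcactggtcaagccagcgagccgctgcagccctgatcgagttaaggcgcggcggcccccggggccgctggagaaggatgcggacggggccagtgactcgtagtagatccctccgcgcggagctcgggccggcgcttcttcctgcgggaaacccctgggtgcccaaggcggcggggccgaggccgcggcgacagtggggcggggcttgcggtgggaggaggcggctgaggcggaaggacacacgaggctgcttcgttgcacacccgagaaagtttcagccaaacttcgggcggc

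The HES1 window held 2 RBPJ motifs in the same orientation, at bases -84 to -79 and -70 to -65 from the start, and no E2-box. The JAG2 window held 1 E2-box, at -36 to -31. The windows of JAG1, NOTCH1, NOTCH2 and NOTCH3 held neither sequence. NRARP had 1 E2-box on the reverse strand at -223 to -218. LFNG has a pair of annotated starts: the first window held 1 RBPJ motif on the reverse strand, at -5 to 1, and the second held 1 RBPJ motif at -248 to -243 and 1 E2-box at -212 to -207. Over all 35116 windows of the RefSeq table, 20.6% held the E2-box and 24.0% the RBPJ motif. A match in these windows is a description of the letters and was not tested for binding.

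**Figure D2:**
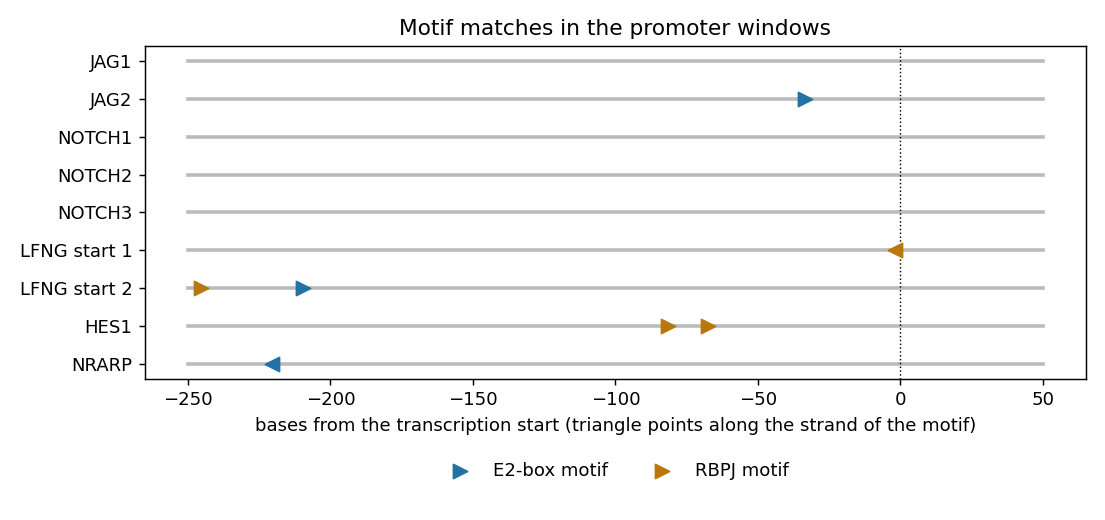
Positions of E2-box (blue) and RBPJ (brown) matches in 300-base promoter windows of 8 genes, in bases from the transcription start, with triangles pointing along the strand of the motif. HES1 has 2 RBPJ matches close together, JAG2 has 1 E2-box near its start, and JAG1 and the 3 NOTCH genes have no match.

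Both Jagged ligand genes fell by similar amounts, whereas the Delta-like gene DLL1 did not pass the test. JAG1, a ligand that is presented to Notch receptors of adjacent cells, was at 7.47, 7.55 and 7.73 in MCF10A-SNAI1 arrays and at 9.46, 9.51 and 9.49 in MCF10A arrays. The lines did not overlap, and the spread was 0.132 in MCF10A-SNAI1 and 0.0232 in MCF10A (SD, n = 3 arrays each). JAG1 fell 3.74-fold (log2 fold change -1.90, standard error 0.0796, 95% interval -2.09 to -1.72, adjusted p = 7.35e-06 from limma).

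JAG2, its close relative, was at 6.76, 6.55 and 6.67 in MCF10A-SNAI1 arrays and at 8.46, 8.61 and 8.47 in MCF10A arrays. The lines were again apart, with a gap far wider than the SD of either, 0.103 in MCF10A-SNAI1 and 0.0813 in MCF10A. JAG2 fell 3.61-fold (log2 fold change -1.85, standard error 0.0787, 95% interval -2.04 to -1.66, adjusted p = 7.95e-06 from limma). The intervals of the JAG1 and JAG2 changes overlapped over most of their length. The JAG2 promoter held the E2-box shown above and that of JAG1 did not, and any bearing of the motif on these changes was not tested.

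DLL1, a Delta-like ligand, was at 5.70, 5.48 and 5.50 in MCF10A-SNAI1 arrays and at 5.71, 5.68 and 5.62 in MCF10A arrays. The lines overlapped, and all 6 values lay under the median of all values in the table, 6.05. Its log2 fold change was -0.11 with a 95% interval of -0.30 to 0.08 (adjusted p = 0.423 from limma). The wider set of 8 ligand genes also held DLL3, DLL4 and the atypical ligands DLK1, DLK2 and DNER. Of these 8 only JAG1 and JAG2 were called, against 2.54% of all genes called lower. DLK2 was the next lowest, at -0.65 (adjusted p = 0.00414), under 2-fold.

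Of the 4 receptor genes NOTCH1 alone was called, against 2.54% of all genes called lower, and NOTCH2 was higher by less than 2-fold. NOTCH1 was at 7.57, 7.27 and 7.33 in MCF10A-SNAI1 arrays and at 8.37, 8.43 and 8.42 in MCF10A arrays. All arrays of the overexpressing line were lower, with replicate 1 the nearest to the control. The fall was 2.02-fold (log2 fold change -1.02, standard error 0.0889, 95% interval -1.23 to -0.81, adjusted p = 2.15e-04 from limma), so the 2-fold limit lies inside the interval. Without MCF10A-SNAI1 replicate 2 or 3 the log2 fold change was -0.96 or -0.99 and NOTCH1 was not called, though its adjusted p stayed below 0.01 (0.00115 and 0.00155).

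NOTCH2 was at 9.82, 9.90 and 9.92 in MCF10A-SNAI1 arrays and at 8.95, 8.96 and 9.08 in MCF10A arrays. The lines did not overlap, and every MCF10A-SNAI1 array was the higher. The difference was 1.84-fold (log2 fold change 0.88, standard error 0.0654, 95% interval 0.73 to 1.04, adjusted p = 1.03e-04 from limma), which is past the limit on p but under 2-fold, so NOTCH2 was not called. Another probe set is annotated with NOTCH2 together with NOTCH2NLA and NOTCH2NLB, partial copies of the gene, and was given to none of them. How far the probe set used here also reads these copies was not tested.

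NOTCH1 and NOTCH2 were also set against each other within each array. Their log2 difference, NOTCH2 minus NOTCH1, was 1.90 larger in MCF10A-SNAI1 than in MCF10A arrays (standard error 0.124, n = 3 arrays each). As NOTCH1 was lower and NOTCH2 higher on every MCF10A-SNAI1 array, the direction had to be the same in every pair across the lines. An exact two-sided permutation test over the arrays then had to give p = 0.1, the smallest that 3 against 3 allow. It adds no evidence beyond the values of each gene. This comparison was chosen after the values were seen.

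NOTCH3 was at 6.66, 6.36 and 6.21 in MCF10A-SNAI1 arrays and at 6.46, 6.40 and 6.58 in MCF10A arrays. The lines overlapped, and its SD of 0.228 in MCF10A-SNAI1 was the widest among the 10 genes. Its log2 fold change was -0.07 with a 95% interval of -0.36 to 0.21 (adjusted p = 0.766 from limma). The fourth receptor gene, NOTCH4, was at -0.02 on that scale (adjusted p = 0.915).

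LFNG encodes Lunatic fringe, a Golgi glycosyltransferase that extends sugars on Notch receptors and so alters which ligands they answer to. It was at 7.17, 7.32 and 7.22 in MCF10A-SNAI1 arrays and at 7.28, 7.37 and 7.32 in MCF10A arrays, which overlap. Its log2 fold change was -0.09 with a 95% interval of -0.24 to 0.07 (adjusted p = 0.444 from limma). Of the related genes, MFNG (Manic fringe) was lower at -0.61 (adjusted p = 0.00971), under 2-fold. None of the 5 receptor glycosylation genes was called by limma or by the methods' t-test, and at an unadjusted p below 0.05 limma gave 1 lower and 2 higher, against 21.3% and 21.0% of all genes.

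Among the targets, HES1 fell and the others were not called. HES1, a basic helix-loop-helix repressor, was at 7.58, 7.40 and 7.52 in MCF10A-SNAI1 arrays and at 9.76, 9.71 and 9.78 in MCF10A arrays. The nearest arrays of the lines were 2.13 apart on the log2 scale. The fall of 4.77-fold was the largest among the 10 genes and among the 62 pathway genes measured (log2 fold change -2.25, standard error 0.0696, 95% interval -2.42 to -2.09, adjusted p = 1.85e-06 from limma). Its promoter is the one printed above with 2 matches to the RBPJ core, and other forms of that motif were not searched for.

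NRARP, an ankyrin repeat protein that dampens Notch signalling, was at 6.07, 5.87 and 5.85 in MCF10A-SNAI1 arrays and at 6.37, 6.21 and 6.31 in MCF10A arrays. All MCF10A-SNAI1 arrays lay below all MCF10A arrays, with a gap of 0.14 between the nearest arrays. Its log2 fold change of -0.37 (standard error 0.0832, 95% interval -0.57 to -0.17) had an adjusted p of 0.0171 from limma and so missed the limit. Over the alternatives its adjusted p ranged from 0.00504 to 0.0634, and it fell below 0.01 with quantile normalization (0.00847), without MCF10A-SNAI1 replicate 1 (0.00911) and with probe sets above the median level only (0.00504), always under 2-fold.

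HEY1, a repressor related to HES1, was at 5.45, 5.39 and 5.17 in MCF10A-SNAI1 arrays and at 5.45, 5.46 and 5.54 in MCF10A arrays. Its values met at 5.45 and, like those of DLL1, lay under the median of the table in both lines. The log2 fold change was -0.15 with a 95% interval of -0.35 to 0.06 (adjusted p = 0.315 from limma). Of the 10 HES, HEY and NRARP genes measured, HES1 alone was called, against 2.54% of all genes called lower. Next lowest was HES7 at -0.52 (adjusted p = 0.0169).

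**Figure D3:**
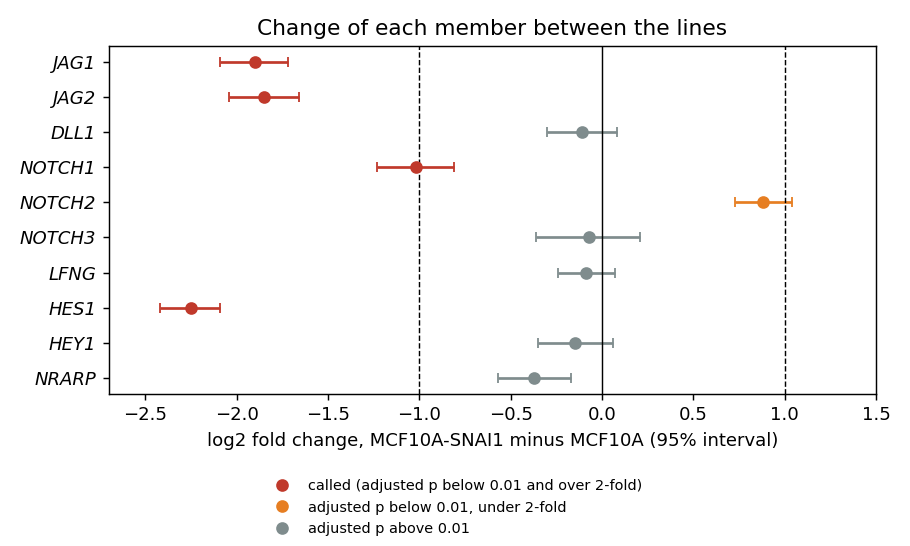
Log2 fold change of each gene, MCF10A-SNAI1 minus MCF10A, with its 95% interval from limma and dashed lines at a 2-fold change. HES1, JAG1 and JAG2 lie between -2.25 and -1.85, NOTCH1 lies on the limit at -1.02, and NOTCH2 is the only gene to the right of 0, at 0.88.

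The spread between arrays was wider in the overexpressing line for most of these genes. The SD was larger in MCF10A-SNAI1 than in MCF10A for 9 of the 10 genes, all but NOTCH2, against 53.1% of all genes. The median SD of the 10 genes was 0.121 in MCF10A-SNAI1 and 0.0474 in MCF10A, against 0.0852 and 0.0801 over all genes. MCF10A-SNAI1 replicate 1 gave the highest value of its line for 7 of the 10 genes, against 39.2% of all genes, and this array also had the highest median, 6.09. Without that array none of the 10 genes changed its call. NOTCH1 then lay at -1.11, JAG1 at -1.85, NOTCH3 at -0.20 and DLL1 at -0.18, and NRARP, at -0.44, had an adjusted p of 0.00911.

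The rest of the pathway was read from a list of 68 genes in 8 roles, of which 62 were measured. Over all 62, 4 were called lower, against 2.54% of all genes, and all of these are among the 10 genes above. Another 4 were called higher, against 3.10% of all genes, all of them in the machinery that cuts the receptor or acts with its freed domain in the nucleus. With an adjusted p below 0.01 and a change of less than 2-fold, 4 more were lower, against 8.64% of all genes, and 11 more were higher, against 8.95%. The median log2 fold change was -0.04, against -0.01 over all genes.

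Of the 8 nuclear activators 3 were called higher, against 3.10% of all genes. These 3 were known as called when the role lists were written. EP300, a histone acetyltransferase recruited by the Notch complex, was at 8.01, 8.07 and 8.09 in MCF10A-SNAI1 arrays and at 6.38, 6.57 and 6.38 in MCF10A arrays (log2 fold change 1.62, standard error 0.0736, adjusted p = 1.09e-05). KAT2B, another acetyltransferase, was at 7.76, 7.72 and 7.72 in MCF10A-SNAI1 arrays and at 6.45, 6.52 and 6.24 in MCF10A arrays (log2 fold change 1.33, standard error 0.0837, adjusted p = 4.67e-05). MAML2, a Mastermind-like coactivator, was at 7.47, 7.64 and 7.65 in MCF10A-SNAI1 arrays and at 6.36, 6.58 and 6.40 in MCF10A arrays (log2 fold change 1.14, standard error 0.0865, adjusted p = 1.14e-04). The lines stood apart in each of these genes, by as little as 0.89 in MAML2. RBPJ, the DNA-binding partner that all Notch receptors share, was higher on its brighter probe set at 0.76 (adjusted p = 3.42e-04), under 2-fold, and its other probe set was at 0.63 (adjusted p = 0.0288). KAT2A, a close relative of KAT2B, was lower at -0.46 (adjusted p = 0.00197), under 2-fold. The median over the 8 nuclear activators was 0.58, against -0.01 over all genes. These acetyltransferases serve many other transcription factors too.

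Among the 8 receptor cleavage genes only NCSTN, the gene of the gamma-secretase subunit nicastrin, was called, against 3.10% of all genes called higher. It was at 10.44, 10.46 and 10.48 in MCF10A-SNAI1 arrays and at 9.33, 9.47 and 9.43 in MCF10A arrays (log2 fold change 1.05, standard error 0.0621, adjusted p = 3.57e-05). Of the other gamma-secretase subunit genes, APH1B was higher at 0.92 (adjusted p = 0.00258) and the catalytic subunit gene PSEN2 was lower at -0.70 (adjusted p = 4.60e-04), both under 2-fold. APH1A was at -0.24 (adjusted p = 0.059) and PSENEN at 0.30 (adjusted p = 0.0564), and no difference between subunits was tested. Of the metalloproteases that cut ahead of gamma-secretase, ADAM10 was higher at 0.61 (adjusted p = 0.00155) and ADAM17 was at -0.41 (adjusted p = 0.0185).

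None of the 12 endocytosis and turnover genes and none of the 7 corepressor genes was called by limma or by the methods' t-test. At an unadjusted p below 0.05, limma gave 4 lower and 4 higher turnover genes, and 0 lower and 4 higher corepressor genes, against 21.3% lower and 21.0% higher over all genes. DTX3, of the Deltex family of ubiquitin ligases, came nearest to a call at 0.94 (adjusted p = 6.09e-05), and TLE4, a Groucho-type corepressor that HES proteins recruit, was at 0.82 (adjusted p = 7.87e-04).

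**Figure D4:**
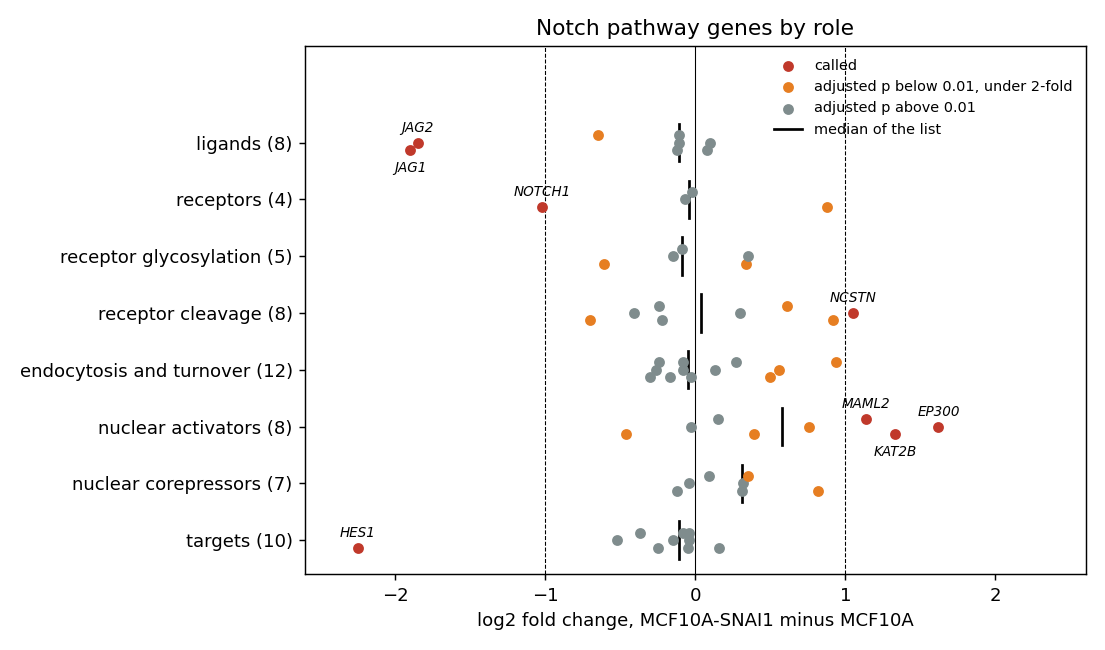
Log2 fold change of 62 Notch pathway genes by role, MCF10A-SNAI1 minus MCF10A, with the number measured in brackets, a point per gene, called genes in red and named, and a black bar at the median of each list. The called genes on the left are ligands, NOTCH1 and HES1, and those on the right are NCSTN and the nuclear activators MAML2, KAT2B and EP300.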

How the data were processed

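The authors deposited log2 values of 33297 probe sets on 6 Affymetrix HuGene-1_0-st-v1 arrays, 3 per line. The methods describe GC RMA in GeneSpring GX, while GCOS, Expression Console 1.1 and MAS5 appear in the submitters' processing notes. Which program wrote the deposited table could not be read from any source used here, and its background correction affects changes of dim genes. Values were used as deposited. A single symbol was annotated to 19460 probe sets, several to 1754 and none to 12083. The brightest probe set per gene gave 18417 genes, of which 18389 had a RefSeq entry by gene ID.

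Lines were compared in R 4.3.3 with limma 3.58.1 (lmFit, eBayes), with p-values adjusted over all probe sets by Benjamini-Hochberg, at the methods' thresholds of 0.01 and 2-fold. The test was checked on simulated data. Precision is limited by 3 arrays per line. The genes, role lists and marker lists were chosen with earlier results of these data known. Named were the 10 genes, SNAI1, called pathway genes, the 3 lowest and 3 highest uncalled ones with an adjusted p below 0.01, and the 3 genes most like each called gene. VIM, SPARC, KRT8, CD68, PTPRC, CD3E, DLL3, DLL4, DLK1, DNER, NOTCH4, HES7, RBPJ, ADAM10, ADAM17, APH1A, PSENEN, KAT2A and TLE4 were named after their values were seen. The other 6 listed pathway genes were not analysed here. Alternatives were quantile normalization, median centring, a replicate block, leaving out each array, dropping dim probe sets, no fold limit, the methods' t-test, trended moderation, robust moderation, and the mean over a gene's probe sets.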

Additional observations from a re-analysis of the deposited data

How the results depend on the processing

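JAG1, JAG2 and HES1 were called lower under every alternative, and SNAI1 higher. Counts of called genes among the 10 and in the pathway moved by over 1.5 times only without the fold limit, with 1 of the 10 genes higher (NOTCH2) and 23 pathway genes called, 8 lower and 15 higher. With each array left out, NOTCH1 ranged from -1.11 to -0.96 and NOTCH2 from 0.86 to 0.92, and APH1B was called as well without MCF10A-SNAI1 replicate 1 or MCF10A replicate 2, at 1.04 and 1.03. NOTCH3, which was not called, turned to 0.03 without MCF10A-SNAI1 replicate 3, with a range of -0.20 to 0.03. Among the other uncalled genes, HEY1 ranged from -0.20 to -0.06, DLL1 from -0.18 to -0.07 and LFNG from -0.13 to -0.05. With probe sets above the median level only, 8 of the 10 genes were left, without DLL1 and HEY1. Whether same-numbered arrays of the lines were handled together is not stated. Their deviations from the line means correlated at 0.12, 0.12 and -0.01, and 4 of the 6 arrays correlated best with their own number. With the replicate number as a block (replicate block), 4 of the 10 genes and 8 pathway genes were called, and no call among them changed. The table has no detection calls and the background correction was not varied, which limits what the dim genes DLL1 and HEY1 can show.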

Other observations

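The genes whose 6 array values, each minus its mean, lay nearest to those of a called Notch gene were listed as a description over 6 arrays of 2 lines, with no test. For JAG1 these were the cell cycle kinase gene CDK6, the hypoxia factor gene EPAS1 and the ERK phosphatase gene DUSP7, at root mean square distances of 0.065 to 0.0681 on the log2 scale. For JAG2 they were BAG2, a cochaperone, IL31RA, a cytokine receptor, and RNF43, a ubiquitin ligase that removes Wnt receptors, at 0.039 to 0.0653. For HES1 they were UGT8, which makes galactosylceramide, the stress-response gene NDRG1 and the TRAIL receptor gene TNFRSF10A, at 0.0505 to 0.0825. For NOTCH1 they were SLC26A11, the imprinted gene MEST and SLC25A22, at 0.0429 to 0.063, and all 3 of these lay just under the 2-fold limit, at log2 fold changes of -0.98, -0.97 and -0.97.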
